A study of Mus musculus with 42 samples.

Results

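Laser-captured neurons of the nodose ganglion (NG) were compared with the whole nodose ganglion of inbred BALB/c mice on the MG-U74Av2 array. The comparison takes 12 of the 42 samples of the series: 5 samples of captured neurons, whose titles start with NG and end in _b, and 7 samples of whole ganglion, whose titles start with NG and end in _a. All mice were kept under standard housing and no treatment or genetic change is named in the labels. A captured sample held about 150 neurons, cut from tissue with a laser, and about 12 µg of amplified RNA was labelled. A whole sample was a ganglion lysed intact, and about 12 µg of total RNA was labelled without a named amplification step. The description field calls every sample laser captured, but the extraction text of the samples ending in _a names whole ganglia, and that text and the design were followed. The design calls the captured cells visceral neurons. The labels do not say how these cells were picked out. Dissection, amplification and the bias of the labelled RNA towards 3 prime ends differ together between the groups and cannot be told apart. Nothing in the labels says that the samples came from separate animals, so each p-value reflects just the variation among the arrays at hand, and that variation may be technical.

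The nodose ganglion holds the cell bodies of vagal afferents, the sensory neurons that report from heart, lung and gut to the brainstem. Each cell body is wrapped by satellite glial cells, its axon is accompanied by Schwann cells, and the ganglion also contains connective tissue, blood vessels, resident immune cells and blood. RNA of a whole ganglion mixes all of these, whereas laser capture takes the cell bodies and leaves most of the axon behind. In such bulk RNA, fewer cells of a type and less RNA per cell cannot be told apart.

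The arrays fell into their labelled groups. On the first principal component, which held 60.92% of the variance of the 12 arrays, all captured arrays lay on one side and all whole arrays on the other. Correlations of log2 signals ranged from 0.941 to 0.970 within captured arrays, from 0.948 to 0.979 within whole arrays and from 0.828 to 0.896 between the groups. The second component (8.465%) set captured arrays 010 and 014 apart from captured arrays 003, 007 and 008. The trimmed mean brightness of the arrays as deposited was 232.4 ± 28.0 in captured samples (SD, n = 5) and 239.7 ± 79.5 in whole samples (SD, n = 7), with an exact permutation p of 0.923 (two-sided, 792 arrangements).

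Readouts of 3 prime bias differed between the groups. Control probe sets read the same transcript near its 3 prime end, its middle and its 5 prime end, and a larger ratio of 3 prime over 5 prime signal means that less of the labelled RNA reached the 5 prime end. For beta actin this log2 ratio was 5.82 ± 0.23 in captured samples (SD, n = 5) and 2.94 ± 0.40 in whole samples (SD, n = 7). The difference was 2.88, with no overlap between the groups (exact permutation p = 0.00126, the smallest that 792 arrangements can give, and adjusted p = 0.00221 over 7 measures). For Gapdh the ratio was 6.63 ± 0.25 against 5.50 ± 0.45, and the ratios over the middle of the transcript were 2.93 against 1.07 for beta actin and 3.08 against 1.32 for Gapdh (adjusted p = 0.00221 each in the exact permutation test). Pyruvate carboxylase went the other way, at 2.26 ± 0.58 in captured and 3.44 ± 0.65 in whole samples (exact adjusted p = 0.0177). The test called no difference for the transferrin receptor (1.37 ± 0.84 against 1.63 ± 1.15, exact adjusted p = 0.79). The beta actin ratios of dorsal root ganglion (DRG) samples prepared in the same 2 ways were 5.45 ± 0.18 and 2.80 ± 0.08. The part of this bias in the gene differences below was not tested.

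**Figure D1:**
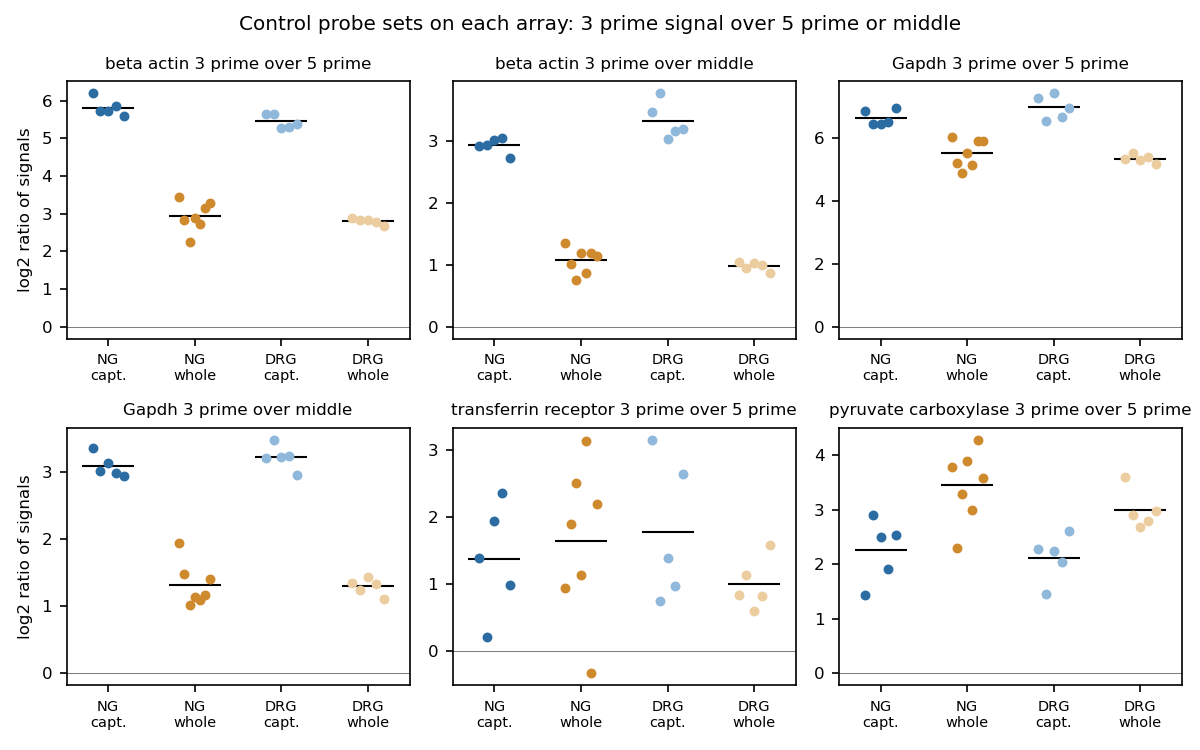
Log2 ratios of control probe set signals (vertical axis) on each array for captured and whole samples of nodose ganglion (NG, 5 and 7 arrays) and dorsal root ganglion (DRG, 5 and 5 arrays); points are arrays and horizontal lines are group means. The beta actin 3 prime over 5 prime ratio lies from 5.58 to 6.20 on captured NG arrays and from 2.26 to 3.44 on whole NG arrays, while the transferrin receptor groups overlap.

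Of 7819 probe sets tested, 2140 (27.4%) were higher in captured neurons and 2344 (30.0%) were higher in whole ganglion in limma's test with Benjamini-Hochberg adjustment over all probe sets tested. With 1 probe set per gene, 5934 genes were tested. Of these 1608 (27.1%) were higher in captured neurons and 1835 (30.9%) in whole ganglion, and the median difference over all genes was -0.005. Here and below a difference is captured minus whole, in log2 of the scaled signal plus 11.4, and a fold is on that scale, which understates the change of dim genes. Large differences were mostly on the whole side: 227 genes (3.83%) were called and at least 2-fold higher in captured neurons, against 793 (13.4%) in whole ganglion. A gene was tested if above a low signal limit on at least 5 nodose arrays. Any 5 of the 7 whole arrays alone could meet this, but of the captured arrays only all 5. The values of all captured arrays lay above those of all whole arrays for 753 genes (12.7%) and below them for 1035 (17.4%). Captured neurons took 47.73% of the calls of probe sets. With every array scaled to the same median, which shifted the median difference of all probe sets from 0.016 to 0.175, they took 61.12% (2929 against 1863). Differences smaller than this shift can change sign with the scaling. A larger value changed sign too: the median of the vagal receptor list below went from 0.183 to -0.086 after quantile normalization. Without captured arrays 010 and 014 the calls numbered 2094 and 2243.

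The gene with the largest rise in captured neurons was Cacng2, which encodes stargazin, an auxiliary subunit of AMPA-type glutamate receptors. Its signals on captured arrays 010, 003, 007, 008 and 014, an order kept below, were 332, 240.4, 307, 153 and 302, and on whole arrays they ranged from 15.3 to 56.3 with a median of 32.5. All captured arrays were above all whole arrays, a 5.97-fold difference (log2 difference 2.58, SE 0.26, adjusted p = 4.91e-09). Adcy8, an adenylyl cyclase stimulated by calcium, read 854, 888, 1049, 631 and 582 in captured samples and from 156 to 219 with a median of 174 in whole ones. It was 4.21-fold higher (log2 difference 2.08, SE 0.16, adjusted p = 3.18e-11). The prostaglandin E2 receptor Ptger4 gave 2374, 1625, 1913, 1264 and 2291 in captured samples, against whole values from 389.8 to 827 with a median of 513. The groups again did not overlap, and the difference was 3.46-fold (log2 difference 1.79, SE 0.18, adjusted p = 3.81e-09). Other genes of this rank were Antxr2, a cell surface receptor for anthrax toxin (4.10-fold), the phospholipid transporter Abcb4 (3.98-fold), the receptor tyrosine phosphatase Ptpro (3.63-fold) and the inward rectifier potassium channel Kcnj12 (3.32-fold). A pair of autophagy genes that act in the formation of the autophagosome also stood here, Wipi2 (3.86-fold) and Atg16l1 (3.33-fold), as did Frat2, an inhibitor of the kinase GSK3 (4.0-fold, with its other probe set not called at -0.015), and the mitochondrial protein gene Nlrx1 (3.55-fold). Absence of overlap was required of all genes named for the largest differences.

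In the other direction the steepest differences reached further. Sparcl1, a secreted matrix protein, read 17.2, 33.7, 6.45, 24.6 and 16.3 on captured arrays and from 523 to 849 with a median of 683 on whole arrays. Whole ganglion was 24.0-fold higher (log2 difference -4.58, SE 0.18, adjusted p = 2.3e-16). The lipocalin Apod, a secreted lipid carrier, had captured signals of 6.98, 20.1, 5.53, 14.9 and 11.2 and whole signals from 449.6 to 896 with a median of 607, a 28.2-fold difference (log2 difference -4.82, SE 0.18, adjusted p = 1.82e-16). Sox2, a transcription factor kept in satellite glia, read 25.9, 12.2, 3.29, 16.6 and 12.9 in captured samples against 389 to 549.5 (median 463) in whole samples (log2 difference -4.27, SE 0.18, adjusted p = 1.14e-15). For these 3 genes the captured signals, 3.29 to 33.7, lay close to the 11.4 added before taking logs. Detection calls were not analysed here, so such signals may be background, and the folds of genes this dim depend on the added value. The retinaldehyde dehydrogenase Aldh1a1 (22-fold) and Gatm, an enzyme of creatine synthesis (16.4-fold), were of similar size. The prefoldin subunit Vbp1 had the largest difference of all (29.3-fold), but its whole signals were spread widely, from 404 to 2721 with a median of 1317. Cpeb2, which binds messenger RNA (23.1-fold), Eid1 (18.3-fold), the oxygen-regulated transcription factor Hif1a (17.5-fold), the Golgi membrane protein Yipf4 (15.5-fold) and Atxn10 (13.2-fold, with its other probe set not called at 0.22) belonged to this group together with the potassium channel gene Kcna1, described with the receptors and channels.

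**Figure D2:**
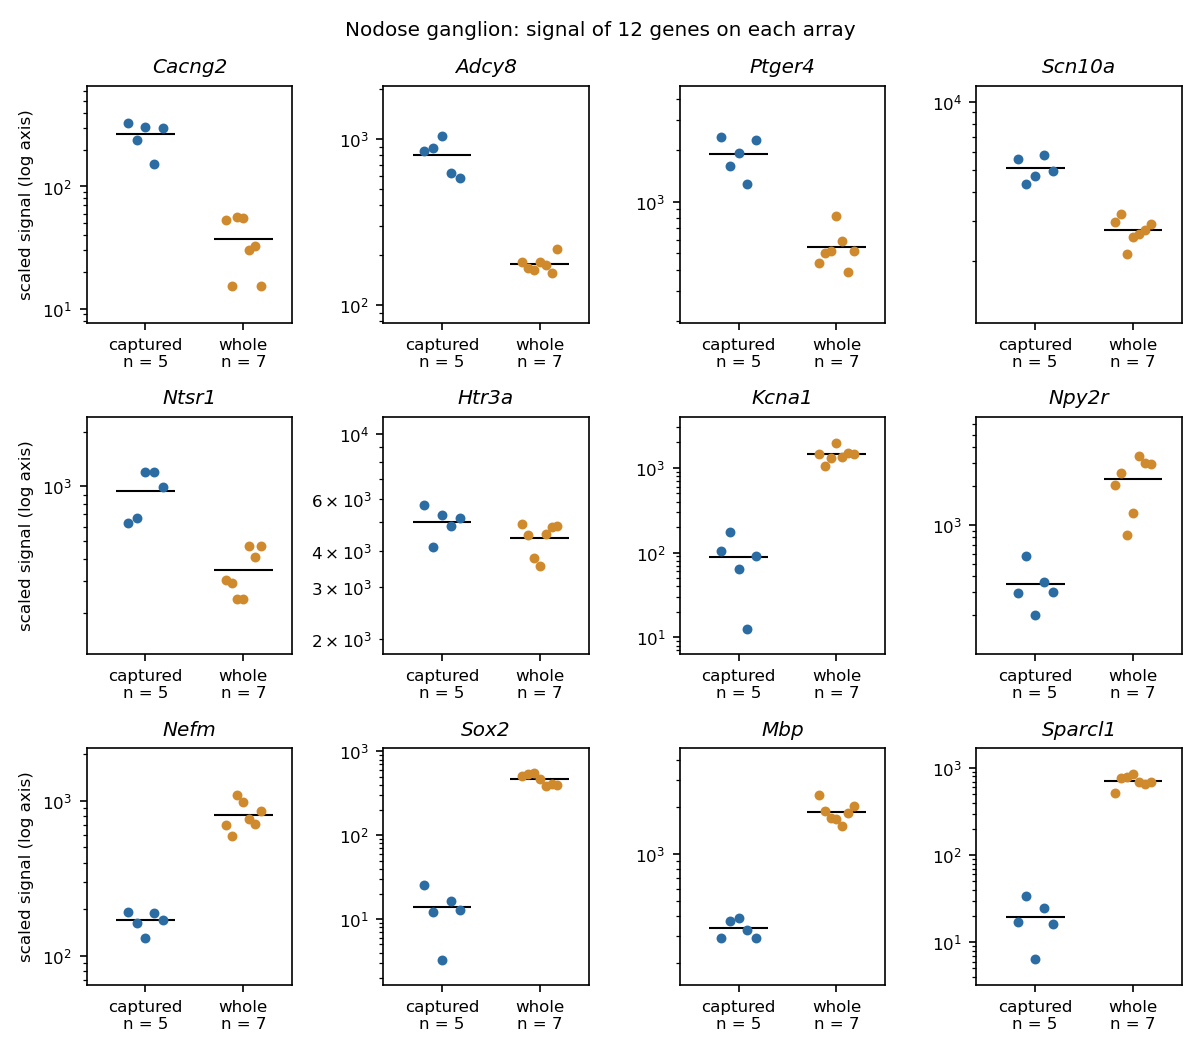
Scaled signal (vertical axis, log scale, different range in each panel) of 12 genes on the 5 captured and 7 whole nodose ganglion arrays; points are arrays and horizontal lines are group means. Cacng2, Adcy8, Ptger4, Scn10a and Ntsr1 are higher on every captured array, Htr3a overlaps, and Kcna1, Npy2r, Nefm, Sox2, Mbp and Sparcl1 are higher on every whole array.

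Connective tissue genes were lower in captured neurons almost throughout. Of 21 fibroblast and extracellular matrix genes tested, 18 were higher in whole ganglion and 0 in captured neurons, against 30.9% and 27.1% of all genes. For 12 of the 21 every whole array lay above every captured array, against 17.4% of all genes. The median difference of the 21 genes was -1.80. Genes were tested if above a low signal limit on at least 5 of the 12 nodose arrays. The arrays of either group alone could thus pass a gene. The counts and medians of this list and those below depend on that filter. The small proteoglycan gene Lum read 86.5, 178, 77.0, 95.5 and 129.8 in captured samples and from 651 to 1244 with a median of 966 in whole ones (log2 difference -2.97, SE 0.19, adjusted p = 2.4e-12). The collagen Col3a1 (-2.96, SE 0.20), the matrix protein Postn (-2.93, SE 0.25) and the fibroblast receptor Pdgfra (-2.83, SE 0.26) had differences close to it. Fbln2, an elastic fibre protein, was not called (-0.15, SE 0.15), and 1 member was called higher in captured neurons without whole array 036 or captured array 014. Sums of signals, here and below, take all list members on the array, tested or not. For this list they were 4304 to 7146 on captured arrays and 12230 to 18230 on whole arrays. The groups did not overlap, and captured samples kept some signal of the list.

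Myelin genes followed the same direction. Of 5 tested, 4 were higher in whole ganglion and 0 in captured neurons, beside 30.9% and 27.1% of all genes. The median of the 5 was -1.75. Myelin basic protein, Mbp, read 291, 370.3, 390.5, 327 and 289 on captured arrays and from 1518 to 2397 with a median of 1829 on whole arrays, a 5.42-fold difference (log2 difference -2.44, SE 0.16, adjusted p = 3.66e-12). Egr2, the transcription factor that drives myelination, read 71.7, 68.5, 65.9, 54.2 and 121 against 456 to 697 (median 637) (log2 difference -2.84, SE 0.26, adjusted p = 8.6e-10). The groups overlapped for neither gene. The dimmer probe set of Mbp was not called (0.33, limma adjusted p = 0.0756). The myelin protein genes Mal (-1.75, SE 0.13) and Pmp22 (-0.72, SE 0.11) were lower in captured neurons as well, and the brighter probe set of Mag was not called (0.012, SE 0.14). The other probe set of Mag was lower in captured neurons (-1.93, limma adjusted p = 1.44e-08). Signals were summed over the 10 genes of the list on the array, tested or not. The sums were 2493 to 2891 on captured and 5599 to 7334 on whole arrays.

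Satellite glial genes were less uniform. Of 11 tested, 7 were higher in whole ganglion and 2 in captured neurons, beside 30.9% and 27.1% of all genes. The median of the 11 was -0.85. The gap junction gene Gja1 read 111, 396, 264, 227 and 126 in captured samples and from 628 to 1325 with a median of 1011 in whole samples (log2 difference -2.16, SE 0.22, adjusted p = 9.71e-09), and the neuregulin receptor Erbb3 (-1.73, SE 0.20), Ednrb (-0.94, SE 0.23), Sox10 (-0.93, SE 0.17), the fatty acid carrier Fabp7 (-0.85, SE 0.18) and S100b (-0.73, SE 0.14) were lower in captured neurons too. The filament gene Vim was called the other way at low signals (43.2 to 69.5 against 10.2 to 49.7, with overlap). So was the glutamine synthetase gene Glul (log2 difference 0.53, SE 0.15, adjusted p = 0.00412), although another of its probe sets gave -2.36 (SE 0.26). The lipoprotein gene Apoe was not called (-0.10, SE 0.089), except after quantile normalization (-0.26, limma adjusted p = 0.00139). Summed signals of this list differed least among the glial and matrix lists, 10600 to 11620 on captured and 13750 to 16650 on whole arrays.

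Among 12 vascular endothelial genes tested, of 16 on the array, 7 were higher in whole ganglion and 1 in captured neurons (median -1.29). The shares of all genes in these directions were 30.9% and 27.1%. Cdh5, the cadherin of endothelial junctions, read 10.4, 13.9, 5.78, 12.3 and 12.7 on captured arrays against 143 to 246 (median 219) (log2 difference -3.28, SE 0.18, adjusted p = 1.5e-13). Eng, a co-receptor for TGF-beta ligands, ranged from 64.1 to 266 on captured and from 472 to 1106 on whole arrays (log2 difference -2.03, SE 0.27, adjusted p = 4.87e-07), and Emcn (-1.91, SE 0.25), the tight junction gene Cldn5 (-1.78, SE 0.18) and Vwf (-1.43, SE 0.43) were also lower. Kdr, a receptor for VEGF, went against its list, at 473, 205, 304, 292 and 376 in captured samples and from 127 to 194 with a median of 139 in whole samples (log2 difference 1.08, SE 0.17, adjusted p = 8.89e-06). Pecam1 was not called (-0.12, SE 0.16). Of 6 smooth muscle and pericyte genes, Acta2 (-2.38, SE 0.41) and Tagln (-0.88, SE 0.22) were higher in whole ganglion and none in captured neurons. That count of 2 lies near the 30.9% of all genes higher in whole ganglion.

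Immune and blood genes were lower in captured neurons or not called. Among 15 genes of macrophages and lymphocytes, 8 were higher in whole ganglion and 0 in captured neurons (median -0.50). For all genes these shares were 30.9% and 27.1%. Cd74, the class II invariant chain, read 86.2, 118, 119, 84.6 and 79.5 against 349 to 631 (median 487) (log2 difference -2.19, SE 0.17, adjusted p = 3.98e-11), and the protease Ctss (-1.97, SE 0.26), complement C1qa (-1.45, SE 0.30), lysozyme Lyz2 (-1.35, SE 0.16) and the macrophage growth factor receptor Csf1r (-1.20, SE 0.21) fell with it. All 3 red cell genes were higher in whole ganglion, with the globin Hba-a1 at 82.5 to 303 on captured and 201 to 2086 on whole arrays, an overlap (log2 difference -1.70, SE 0.41, adjusted p = 0.00111). Of the others, the call of Alas2 (-1.21, SE 0.39) was lost without captured array 014 (limma adjusted p = 0.0566). Counts in the small lists were 1 of 2 mast cell genes (Cma1), 1 of 5 skeletal muscle genes (Myl1) and 2 of 2 adipocyte genes (Lpl and Scd1), in each case higher in whole ganglion. The adipocyte count was 1 without captured array 007, where Scd1 was no longer called (limma adjusted p = 0.0528).

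**Figure D3:**
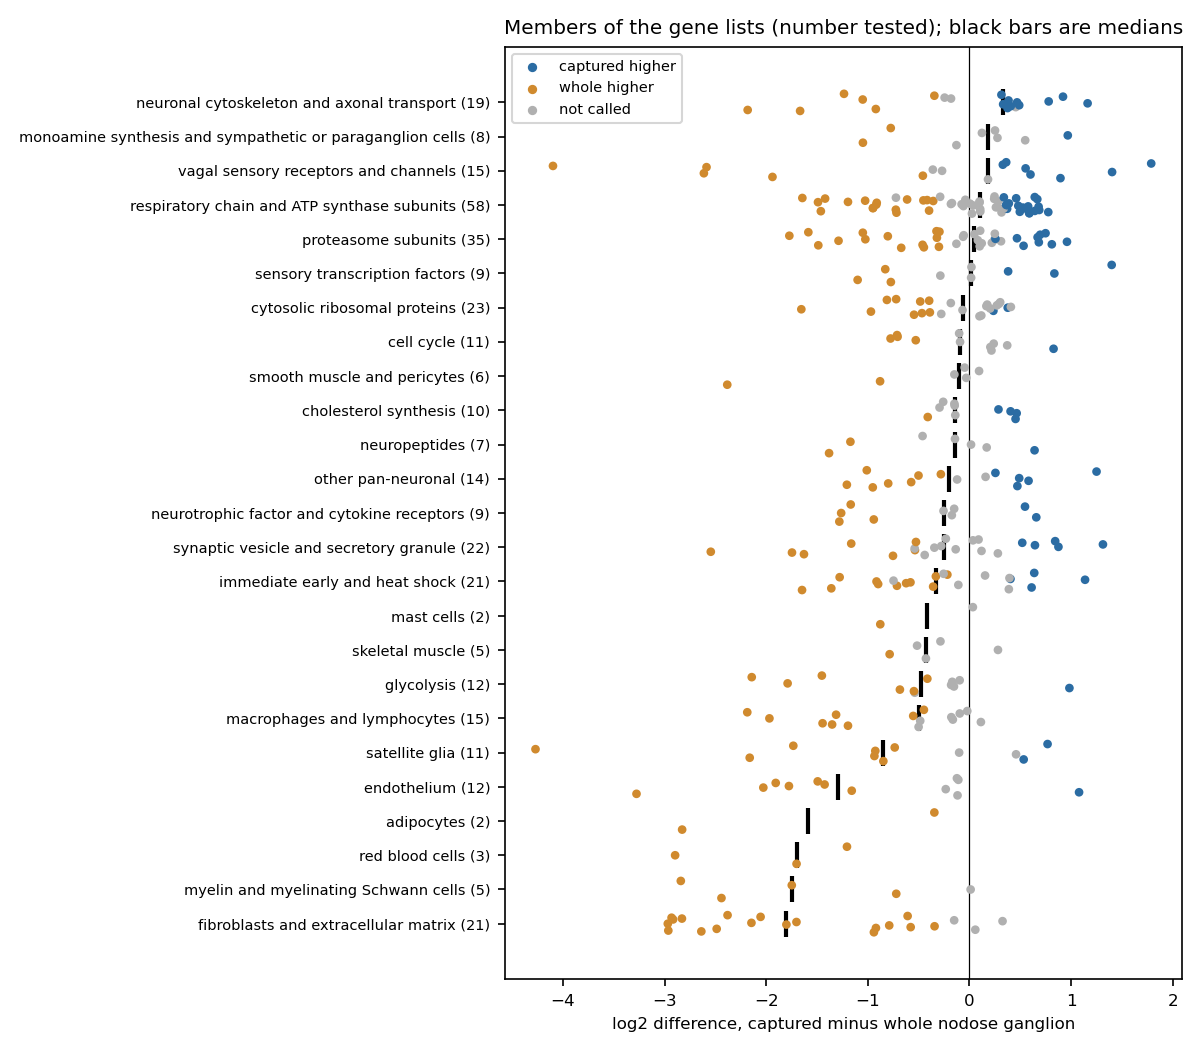
Log2 difference, captured minus whole nodose ganglion (horizontal axis), of each tested member of the 25 gene lists, ordered by list median; points are genes coloured by call and black bars are medians. Medians run from -1.80 for the matrix list to 0.33 for the neuronal cytoskeleton list, and the neuronal lists hold members on both sides of 0.

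Neuronal structural genes were called in both directions. Of 19 cytoskeletal and axonal transport genes, 10 were higher in captured neurons and 6 in whole ganglion, beside 27.1% and 30.9% of all genes. Their median was 0.33, beside -0.005 for all genes. The microtubule-binding stathmin Stmn4 read 775, 589, 820.2, 909.6 and 940.2 against 228 to 428 (median 364) (log2 difference 1.16, SE 0.16, adjusted p = 1.38e-06). The kinesin Kif3c (1.89-fold) and the tau gene Mapt (1.72-fold) were also higher in captured neurons without overlap, and smaller rises were called for the peripheral neurofilament partner Prph (0.38, SE 0.089), the neuronal tubulin Tubb3 (0.41, SE 0.078), the growth cone protein Gap43 (0.47, SE 0.10) and the brighter probe set of Stmn2 (0.49, SE 0.088, against -0.55 on its other one). The 3 neurofilament subunits, which fill large axons, were lower. Nefm read 192, 164, 129.5, 189 and 170.4 in captured samples and from 592 to 1097 with a median of 762 in whole samples (log2 difference -2.18, SE 0.17, adjusted p = 7.19e-11), with Nefl at -1.67 (SE 0.15) and Nefh at -0.92 (SE 0.080). Mapk8ip1, a scaffold of the JNK pathway carried by kinesin, was lower as well (-1.23, SE 0.17). The summed signal of the list was 46460 to 56260 on captured and 38130 to 44280 on whole arrays, with no overlap.

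Genes of vesicles and granules were split. Of 22 tested, 5 were higher in captured neurons, 7 in whole ganglion and 10 were not called (median -0.26). The shares called lie near those of all genes, 27.1% and 30.9%. The synaptic vesicle protein Syp fell most, with 29.3, 35.8, 18.4, 28.3 and 23.2 on captured arrays against 125 to 268 (median 224) (log2 difference -2.54, SE 0.17, adjusted p = 4.24e-12). The synaptotagmins Syt4 (-1.63, SE 0.15) and Syt11 (-1.75, SE 0.17), the granule protein Scg2 (-1.16, SE 0.11) and the fusion protein Snap25 (-0.75, SE 0.12) were lower too. Chga, a core protein of dense granules, was higher in captured neurons, at 871, 703, 944, 830.5 and 788 against 355 to 601 (median 439) (log2 difference 0.84, SE 0.14, adjusted p = 1.07e-05). Rab3a was called higher (0.88, SE 0.27), but not without captured arrays 010 and 014 (0.65, limma adjusted p = 0.0897). Napb, a factor of membrane fusion, rose 2.48-fold on its brighter probe set and was -0.98 (SE 0.17) on another. Chgb, another granule protein, was not called (0.035, SE 0.10).

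Other genes found in nearly all neurons were also divided: of 14 tested, 5 were higher in captured neurons and 7 in whole ganglion (median -0.20). The shares of all genes were 27.1% and 30.9%. Uchl1, the neuronal ubiquitin hydrolase also known as PGP9.5, read 2306, 1853, 2798, 2132 and 2538 in captured samples and from 3840 to 5307 with a median of 4564 in whole samples, a 1.93-fold difference in favour of whole ganglion (log2 difference -0.95, SE 0.10, adjusted p = 2.01e-08). The RNA-binding proteins Elavl2 (-1.21, SE 0.25), Elavl3 (-0.80, SE 0.15) and Elavl4 (-0.57, SE 0.12) were lower in captured neurons, whereas the splicing factor Celf4 (0.58, SE 0.11), the neuronal enolase Eno2 (0.47, SE 0.13, not called after quantile normalization, limma adjusted p = 0.182) and the endosomal protein Nsg1 (1.25, SE 0.20) were higher. Nsg2, a close relative of Nsg1, was lower (-1.01, SE 0.16). Sncg gave 0.49 on one probe set and -0.44 on the other, both called. Summed over the list, signals overlapped, 34920 to 39920 on captured and 32660 to 40280 on whole arrays.

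Receptors and channels of visceral afferents moved in both directions. Of 37 listed, 22 were on the array and 15 passed the filter on low signals. Of these 15, 7 were higher in captured neurons and 5 in whole ganglion (median 0.18, which turned to -0.086 after quantile normalization). Among all genes, 27.1% and 30.9% were called in these directions. Scn10a, the sodium channel Nav1.8 of thin sensory fibres, read 5597, 4362, 4711, 5853 and 4954 on captured arrays and from 2138 to 3224 with a median of 2727 on whole arrays, 1.86-fold higher without overlap (log2 difference 0.90, SE 0.10, adjusted p = 3.81e-08). The neurotensin receptor Ntsr1 read 627, 673, 1192, 1203 and 988 against 239 to 468 (median 306) (log2 difference 1.40, SE 0.19, adjusted p = 6.73e-07). A smaller rise was called for the cholecystokinin receptor Cckbr (0.60, SE 0.14), beside that of Ptger4. The 5-HT3 receptor subunit Htr3a had nearly equal signals, 5707, 4118, 5278, 4848 and 5177 against 3559 to 4929 (median 4554), and was not called (log2 difference 0.18, SE 0.12, adjusted p = 0.216), although it was called with the same median on every array (0.36, limma adjusted p = 0.0247). Gpr65, a proton-sensing receptor (log2 difference -0.36, SE 0.20, adjusted p = 0.121), and Crhr2, a receptor for urocortins (log2 difference -0.27, SE 0.21, adjusted p = 0.286), were not called. Without captured array 014 Gpr65 was called lower (-0.56, limma adjusted p = 0.0126).

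The largest falls on this list belonged to Kcna1, Npy2r and Grik1. Kcna1, the Kv1.1 subunit found beside the nodes of myelinated axons, read 104, 177, 63.4, 12.7 and 91.8 in captured samples and from 1046 to 1992 with a median of 1442 in whole samples, a 17.1-fold difference (log2 difference -4.10, SE 0.30, adjusted p = 3.57e-11). The neuropeptide Y receptor Npy2r, known on vagal afferents of gut and airway, read 296, 577, 200.1, 362 and 304 against 835 to 3418 (median 2502) (log2 difference -2.61, SE 0.28, adjusted p = 2.74e-08). Neither overlapped. The kainate receptor subunit Grik1 (3.50 to 28.4 against 79.2 to 236, -2.59, SE 0.29) and the cation channel Trpc4 (-1.94, SE 0.28) were lower in captured neurons as well. For Cckar, the cholecystokinin receptor of gut afferents, captured signals of 1388, 1309, 1171, 1739 and 1306 and whole signals from 1619 to 2220 with a median of 1834 overlapped (log2 difference -0.46, SE 0.18, adjusted p = 0.0281). Its call was lost when any of whole arrays 036 and 023 or captured arrays 003, 007 and 014 was left out (limma adjusted p from 0.0503 to 0.074) and when arrays were scaled to a common median (-0.28, limma adjusted p = 0.151).

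Of 9 transcription factors of sensory neurons tested, 3 were higher in each preparation, shares near those of all genes (27.1% and 30.9%). Klf7, a factor needed for sensory axon growth, read 4469, 2352, 3224, 3195 and 3106 in captured samples and from 1079 to 1307 with a median of 1203 in whole samples (log2 difference 1.40, SE 0.12, adjusted p = 2.27e-10), and the T-box factor Tbx3 was higher with overlap (239 to 409 against 148 to 240, 0.84, SE 0.17). Isl1, the LIM homeobox factor of sensory neurons, was lower (114 to 252 against 235 to 473, log2 difference -1.10, SE 0.18, adjusted p = 9.28e-06). Eya1 was called higher (0.38, SE 0.16), but not without captured array 003, 007 or 008 or whole array 020, 023, 026 or 073 (limma adjusted p from 0.0561 to 0.131). Nor was Eya1 called without scaling, with no filter or with array weights (limma adjusted p from 0.0606 to 0.191). The homeobox factor Tlx2 was not called (log2 difference 0.017, SE 0.13, adjusted p = 0.921). Phox2a, a determinant of visceral neurons, was dim on this array, at 13.1, 11.6, 7.85, 14.4 and 55.4 and 10.6 to 86.5, and its call (log2 difference -0.77, SE 0.31, adjusted p = 0.036) was lost without captured array 003, 007, 008 or 010 (limma adjusted p from 0.0664 to 0.108). The Phox2a call was also lost under each other scaling, with the 12 nodose arrays alone and with array weights (limma adjusted p from 0.0506 to 0.09). The count of 3 in whole ganglion was 1 without captured array 014 or without whole array 020 or 023.

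Of 7 neuropeptide genes tested, 1 was higher in captured neurons and 2 in whole ganglion, beside 27.1% and 30.9% of all genes. Adcyap1, which encodes PACAP, was higher in captured neurons (1593 to 3374 against 1079 to 2269, log2 difference 0.64, SE 0.16, adjusted p = 0.00114), and the substance P precursor Tac1 and the enkephalin precursor Penk were lower. Tac1 was the most uneven across captured arrays, at 787, 273, 54.7, 180.4 and 393, against 483 to 1200 (median 594) on whole arrays (log2 difference -1.38, SE 0.36, adjusted p = 0.00208). Galanin (Gal, 0.17, SE 0.16) was not called. Bdnf was not called either (-0.46, SE 0.25), but was called lower without captured array 003 (-0.79, limma adjusted p = 0.00152). Of 9 receptors for neurotrophic factors and cytokines, 2 were higher in captured neurons and 4 in whole ganglion. The receptor kinase Ltk rose without overlap (1429 to 1844 against 881 to 1287, log2 difference 0.55, SE 0.14, adjusted p = 0.00226). Lower were the oncostatin M receptor Osmr (-1.26, SE 0.26), the neurotrophin-3 receptor Ntrk3 (-1.28, SE 0.27), Kit (-1.17, SE 0.29) and the GDNF receptor Ret, which was dim at 13.6 to 31.1 and 15.1 to 64.5 (log2 difference -0.94, SE 0.25, adjusted p = 0.00203). The other gene counted as higher, Gfra2 (0.66, SE 0.25), was not called without whole array 023 or 026 or captured array 007 (limma adjusted p from 0.0636 to 0.0765), which left 1. Nor was Gfra2 called without scaling or with the 12 nodose arrays alone (limma adjusted p = 0.0613 and 0.0745).

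Genes of monoamine synthesis included markers of paraganglion and sympathetic cells that can lie beside the ganglion. Tyrosine hydroxylase, Th, read 330.3, 460.2, 466, 923 and 544 on captured arrays and from 907 to 1479 with a median of 1033 on whole arrays (log2 difference -1.05, SE 0.17, adjusted p = 1.21e-05). Only captured array 008 reached into the range of the whole arrays. Ddc, the decarboxylase of dopamine and serotonin synthesis, was not called, with 1373, 2919, 922, 1160 and 1312 against 1161 to 2020 (median 1707) (log2 difference -0.13, SE 0.22, adjusted p = 0.645). Gata3 was lower at low signals (17.4 to 36.1 against 43.9 to 67.1, -0.77, SE 0.19). Of the 8 genes tested, 1 was higher in captured neurons, 2 in whole ganglion and 5 were not called. Among all genes, 27.1% were higher in captured neurons and 30.9% in whole ganglion. The noradrenaline transporter Slc6a2 was the 1 gene called higher in captured neurons (39.9 to 198 against 27.7 to 82.2, 0.97, SE 0.35), a call lost without captured array 003, 008 or 010 (limma adjusted p from 0.0644 to 0.0787). With array weights Slc6a2 was not called either (limma adjusted p = 0.0638).

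Immediate early and heat shock genes, which respond to stimuli and stress within minutes to hours, were called in both directions. Of 21 tested, 11 were higher in whole ganglion and 4 in captured neurons (median -0.33), beside 30.9% and 27.1% of all genes. With arrays scaled to a common median the counts were 8 and 6 (median -0.16). Fos read 153, 33.0, 111, 100 and 114 in captured samples and from 204 to 445 with a median of 347 in whole samples (log2 difference -1.65, SE 0.26, adjusted p = 8.72e-06), and Jun read 119, 114, 129, 132 and 197 against 226 to 605 (median 366) (log2 difference -1.36, SE 0.19, adjusted p = 1.21e-06). Neither overlapped. The heat shock gene Hspa1b (-1.28, SE 0.25), Ier3 (-0.90, SE 0.20) and the orphan nuclear receptor Nr4a1 (-0.91, SE 0.14) were lower in captured neurons, and Klf6 (1440 to 2899 against 746 to 1235, 1.14, SE 0.14), Junb (0.61, SE 0.17) and Gadd45g (0.64, SE 0.17) were higher. Of 11 cell cycle genes, 4 were higher in whole ganglion, among them Pcna (-0.71, SE 0.15) and Rrm1 (-0.71, SE 0.18), and 1 in captured neurons, Ccnb2 (0.83, SE 0.21). In that direction 2 were called without captured array 010 or whole array 036.

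Metabolic genes were called in both directions. Of 12 glycolytic genes, 6 were higher in whole ganglion and 1 in captured neurons (median -0.48). The lactate dehydrogenase Ldha read 1395, 1692, 1125, 1282 and 1655 against 5127 to 7163 (median 6586) (log2 difference -2.14, SE 0.15, adjusted p = 6.52e-12), with Tpi1 (-1.79, SE 0.17) and Ldhb (-1.45, SE 0.13) beside it, while the phosphofructokinase Pfkp rose (5490 to 6941 against 2462 to 3627, log2 difference 0.98, SE 0.10, adjusted p = 9.19e-09). Of 58 subunits of the respiratory chain and ATP synthase, 20 were higher in captured neurons and 17 in whole ganglion (median 0.10), from Cox4i1 (0.69, SE 0.12) and Ndufa13 (0.68, SE 0.13) to Ndufb8 (-1.49, SE 0.15) and Uqcr11 (-1.64, SE 0.25). These shares lie near those of all genes, 27.1% and 30.9%. Of 35 proteasome subunits, 9 were higher in captured neurons, led by the catalytic subunit Psmb5 (0.96, SE 0.12), and 14 in whole ganglion, led by Psmd11 (-1.77, SE 0.26) and Psmd6 (-1.58, SE 0.13). Of 10 cholesterol synthesis genes, 4 were higher in captured neurons, among them Fdft1 (0.41, SE 0.087) and Hmgcs1 (0.45, SE 0.11), and 1 in whole ganglion, Mvd (-0.41, SE 0.14). The last call was lost without captured array 010 (limma adjusted p = 0.0613), and 2 genes were higher in whole ganglion without whole array 036. Of 23 cytosolic ribosomal proteins, 9 were higher in whole ganglion, led by Rpl8 (-1.65, SE 0.10), and 2 in captured neurons. Those were Rpl7 (0.24, SE 0.10) and Rps10 (0.38, SE 0.15), and the count of 2 became 4 without whole array 036, 1 without whole array 026 or captured array 007, 008 or 010, and 0 without whole array 020, 039 or 073 or captured array 003.

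The medians of several lists lay within the shift that scaling can make. The medians of the proteasome (0.049), ribosomal protein (-0.068), cell cycle (-0.092), cholesterol synthesis (-0.14), neuropeptide (-0.14), and smooth muscle (-0.10) lists changed sign under another scaling, as did that of the vagal receptors. The medians of the matrix, myelin, endothelial, satellite glial and macrophage lists stayed below 0 under all 4 scalings. So did those of the vesicle, other pan-neuronal, neurotrophic receptor, mast cell, red cell, skeletal muscle, adipocyte, immediate early and glycolysis lists. Those of the neuronal cytoskeleton, transcription factor, monoamine and respiratory chain lists stayed above 0. Among the brightest genes with a difference under 0.2, Tuba1a (11670 ± 931 against 11050 ± 2230, SD, n = 5 and 7), the G protein subunit Gnas (0.024, SE 0.10), the elongation factor Eef1a1 (-0.16, SE 0.089), Tuba1c (-0.090, SE 0.10) and the brightest probe set of the adhesion molecule Cadm1 (-0.17, SE 0.10) were not called. The other probe sets of Cadm1 were called lower in captured neurons (-0.63 and -0.77). Eef1a1, Tuba1c and the brightest probe set of Cadm1 were called lower after quantile normalization (limma adjusted p = 0.00114, 0.0106 and 0.000286 in this order) and without whole array 039 (limma adjusted p = 0.00765, 0.0308 and 0.024).

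Probe sets of the same gene did not always give the same answer. Of 992 genes with at least 2 tested probe sets, 122 (12.30%) had probe sets called in opposite directions, 134 had at least 2 called and only higher in captured neurons, and 129 had at least 2 called and only higher in whole ganglion. For Nrp1, a receptor for semaphorins and VEGF, one probe set read 3089, 2056, 2766, 2436 and 2970 in captured and from 851 to 1401 with a median of 1129 in whole samples (log2 difference 1.21, SE 0.13, adjusted p = 1.09e-08). The other read 22.9, 28.6, 16.3, 21.5 and 25.8 and from 137 to 204 with a median of 176 (log2 difference -2.42, SE 0.18, adjusted p = 2.74e-11). Neither overlapped, and their calls were opposite. The collagen Col1a2 gave 0.55 and -2.64, the glutamate receptor subunit Gria2 gave 1.89, 0.55 and -1.09, and Agfg1 gave 0.59, -0.44 and -2.18, all called. Among genes named here, Napb, Sncg, Glul, Stmn2, Psmd11 and the cholesterol synthesis gene Fdps likewise had probe sets called both ways. Of genes named as called, Cox4i1, Csf1r, Mapk8ip1, Mapt, Pbx3, Pdgfra, Prph, Psmb5, Slc6a2 and Tubb3 had at least 1 other probe set that was not called, with a difference of the same sign. The position of each probe set along its transcript was not analysed here.

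**Figure D4:**
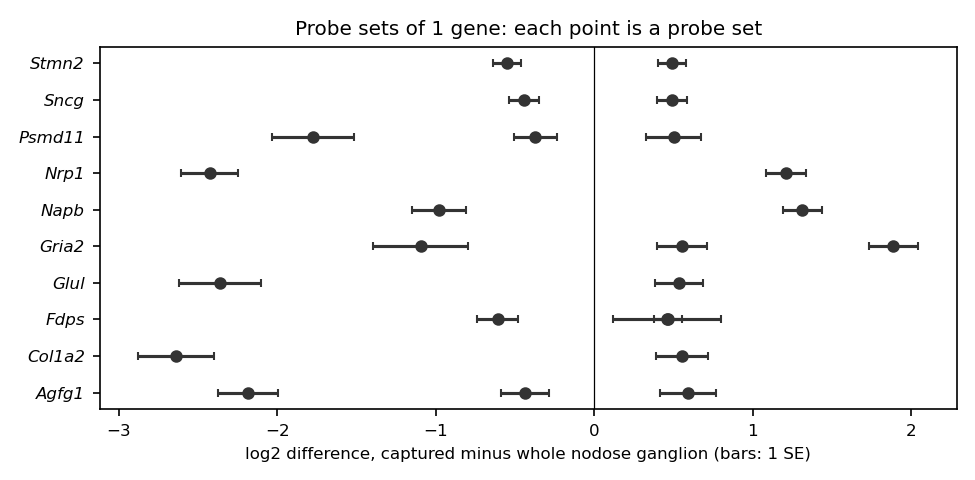
Log2 difference, captured minus whole nodose ganglion (horizontal axis, bars are 1 SE), of every tested probe set of the 10 named genes whose probe sets were called in opposite directions; each point is a probe set. For Nrp1 the 2 points stand at 1.21 and -2.42, and for Col1a2 at 0.55 and -2.64.

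The same contrast of preparations was available in dorsal root ganglion, with 5 captured and 5 whole samples on the same array type and no array shared with the nodose comparison. There 1375 genes (23.2%) were higher in captured neurons and 1537 (25.9%) in whole ganglion. Of the genes higher in captured nodose neurons 858 were also higher in captured DRG neurons (53.36% of the nodose list and 62.40% of the DRG list), and 1118 were higher in the whole of both ganglia (60.93% and 72.74%). Across the 5934 genes the 2 sets of differences had a Pearson r of 0.70 and a Spearman rho of 0.66, with 4434 genes (74.72%) of the same sign; genes are not independent replicates, and the preparations share amplification and array type. Sparcl1 (-4.58 in nodose and -4.10 in DRG), Mbp (-2.44 and -2.57), Col3a1 (-2.96 and -2.65) and Syp (-2.54 and -2.29) had differences of like size in both.

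The difference between the ganglia itself, tested as an interaction, was called more positive in nodose for 517 genes (8.71%) and more negative for 682 (11.5%). Endothelial genes were among the latter: Cdh5 fell by 3.28 in nodose and by 0.81 in DRG (interaction -2.47, limma adjusted p = 4.53e-07), and Eng fell in nodose (-2.03) but was not called in DRG (-0.12, interaction -1.91, limma adjusted p = 0.00104). Of the 12 endothelial genes the interaction was called for 6, 5 of them more negative in nodose. Genes passed the filter by their signal on nodose arrays alone, whatever their DRG signal. The counts of interactions depend on that choice. For 68 genes higher in captured nodose neurons, the call in DRG was the opposite (4.229% of the nodose list), as it was for 84 genes higher in whole nodose ganglion (4.578%). Genes chosen for opposite calls have a large interaction by that choice, so theirs is given as a description. Adcy8 was -0.78 in DRG (mean signals 169 ± 41.0 in captured and 295 ± 45.2 in whole samples, SD, n = 5 each; interaction 2.86, limma adjusted p = 1.98e-09). The transcription factors Mef2a (1.34 against -0.93) and Pbx3 (1.18 against -0.77), the LIM domain-binding factor Ldb2 (1.12 against -0.47), the cytochrome gene Cyp4v3 (1.04 against -0.55) and the noncoding RNA Xist (1.01 against -1.31) also rose in nodose neurons and fell in DRG neurons. In the opposite direction stood the retinoid receptor Rxrg (-1.72 against 1.85, interaction -3.57), the sodium pump regulator Fxyd7 (-1.97 against 0.66), the serine protease Prss12 (-1.80 against 0.84), Midn (-1.45 against 1.28), Tmem176a (-1.52 against 0.67) and the potassium channel Kcnj9 (-1.51 against 0.98). The fit held no term for the sex of the mice, and the part of sex in the Xist values was not tested. Tac1, the neuropeptide gene, was lower in captured nodose neurons (-1.38) and higher in captured DRG neurons (1.52, interaction -2.90, limma adjusted p = 0.000354), and Npy2r, at -2.61 in nodose, was not called in DRG (0.56, interaction -3.17, limma adjusted p = 6.79e-06).

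**Figure D5:**
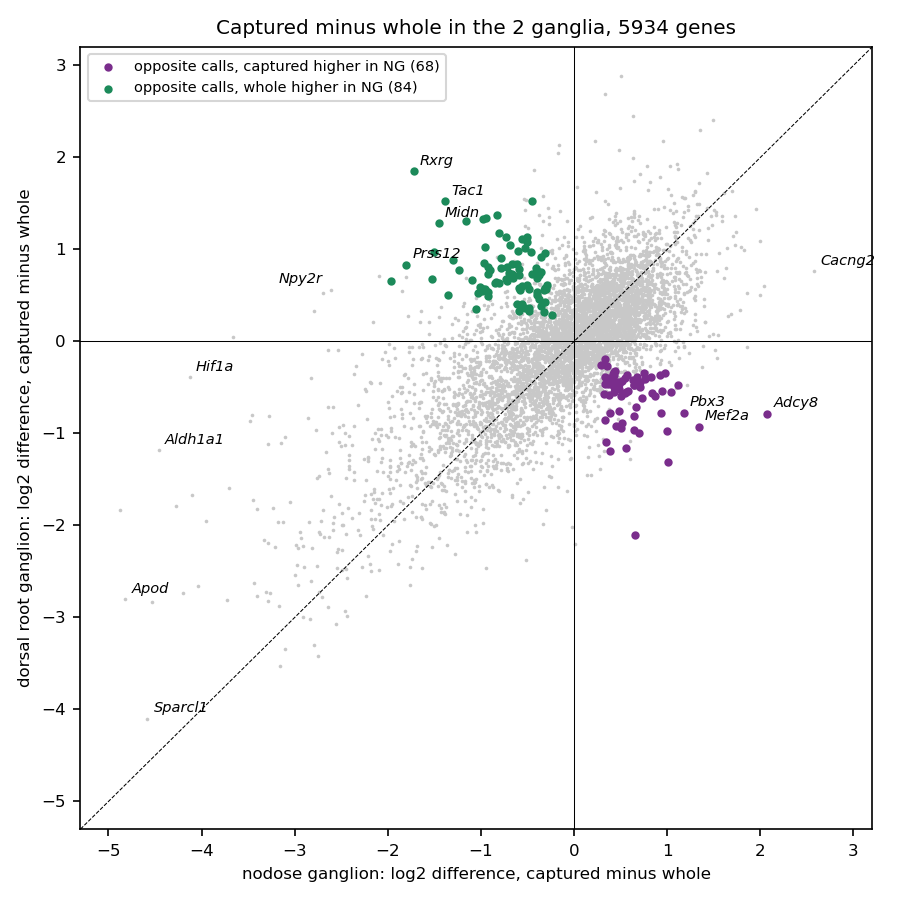
Log2 difference, captured minus whole, in nodose ganglion (horizontal axis) and dorsal root ganglion (vertical axis) for 5934 genes, 1 point per gene, with the line of equality dashed. Of the coloured genes, called in opposite directions, 68 were higher in captured nodose neurons and 84 in whole nodose ganglion; Sparcl1 lies near the dashed line and Hif1a and Aldh1a1 lie above it.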

How the data were processed

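MAS5 signals of MG-U74Av2 arrays, an intensity per probe set on a linear scale, were deposited by the authors, with MAS5 named per the submitters' processing notes without a version. The deposited signals ran from 0.137 to 14680. Each array was scaled to the same 2 percent trimmed mean, and log2(signal + 11.4) was taken, 11.4 being the 20th percentile of the scaled signals. Of 12488 probe sets, 66 controls were left out, and 7819 above the 40th percentile of their own array on at least 5 of the 12 nodose arrays were tested. A limma fit with trend and robust settings (limma 3.58.1, R 4.3.3) held all 22 arrays of this type in 4 groups, so that the nodose and DRG contrasts share 1 estimate of the spread. Benjamini-Hochberg adjustment ran over all probe sets tested, and an adjusted p below 0.05 was a call. Control ratios were compared by an exact permutation test over samples. The fit was tested on simulated data. Figures were drawn with Python 3.11.15 and matplotlib 3.10.9.

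Probe sets with 1 symbol numbered 10855, with several 396 and with none 1237, and each gene was read by its brightest probe set over the nodose arrays. Genes were named by rule: up to 12 per direction with the largest difference, no overlap and signal above the median of 204.6; up to 3 per direction in each of 25 lists; a fixed set of nodose markers; up to 6 per direction called the opposite way in DRG; 5 with disagreeing probe sets; and 5 bright genes not called with a difference under 0.2. Other list members in the text were chosen after their values were seen. The comparison and the lists were chosen with earlier results of these data known. Some genes that the rule names are not reported here. Alternatives changed the scaling, the added value, the filter, the arrays in the fit, the variance model, array weights, the probe sets and the replicate block, and left out each array in turn. The number of arrays limits the precision, and detection calls and probe positions were not analysed here.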

Additional observations from a re-analysis of the deposited data

Results flagged for a closer look

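In 27 of 386 groups of signals examined, 1 array stood apart from the others of its group by more than Dixon's criterion allows, 9 times among captured and 18 times among whole arrays. Chance alone gives about 1 in 20. On captured array 014, Yipf4 read 39.6 against 11.0 to 12.7 on the other arrays, Phox2a 55.4 against 7.85 to 14.4, Acta2 64.4 against 4.95 to 8.67, Lpl 32.9 against 6.83 to 10.3, Jun 197 against 114 to 132 and Trpc4 18.8 against 74.1 to 106. On captured array 003, Ndufb8 read 66.1 against 92.0 to 102 on the other arrays and Psmd4 1613 against 2430 to 2869. On captured array 008, Cpeb2 read 30.8 against 10.5 to 13.5 on the other arrays. On whole array 046, Stmn4 read 228 against 329.6 to 428 on the other arrays, Kif3c 855 against 562 to 664, Syp 125 against 199.8 to 268, Sncg 8366 against 5334 to 6430, Ldb2 2070 against 2707 to 3114 and Gria2 18.6 against 41.6 to 68.6. On whole array 073, Tpi1 read 1986 against 2611 to 3194 on the other arrays, Midn 417 against 578 to 661 and Scg2 1270 against 1561 to 1625. On the same array the Glul probe set with a difference of -2.36 read 108 against 309 to 392. On whole array 036, Rrm1 read 85.2 against 141 to 204 on the other arrays, Ret 15.1 against 39.4 to 64.5 and Rxrg 24.99 against 42.1 to 52.5. On whole array 026, Gadd45g read 89.0 against 119 to 145 on the other arrays and Vwf 886 against 181 to 272. On whole array 020, Ptpro read 622 against 402 to 473 on the other arrays. On whole array 039, Eef1a1 read 6956 against 8969 to 10480 on the other arrays. The trimmed mean of the deposited signals of whole array 039 was 408, above the other whole arrays (174.9 to 254.2), and scaling removes this difference.

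Of 186 probe sets of named genes, the captured minus whole difference of 88 differed between nodose ganglion and DRG (limma interaction, Benjamini-Hochberg adjustment over all probe sets tested), 28 more positive and 60 more negative in nodose. Over all genes the shares were 8.71% and 11.5%, and these probe sets were named partly for large nodose differences or opposite calls in DRG, so the counts are a description of the choice and no result about the genes. The values below are nodose minus DRG differences on the log2 scale. Among the genes with the largest nodose differences, the difference was more positive in nodose for Cacng2 1.81, Adcy8 2.86, Antxr2 1.44, Abcb4 1.49, Ptpro 1.92, Nlrx1 0.84 and Ptger4 0.77, and more negative for Vbp1 -3.04, Apod -2.02, Cpeb2 -1.69, Aldh1a1 -3.28, Sox2 -2.48, Eid1 -1.46, Hif1a -3.74, Kcna1 -2.43, Gatm -1.38, Yipf4 -2.0 and Atxn10 -0.92. Among the genes chosen for opposite calls in the ganglia, whose interaction that choice fixes, the difference was more positive in nodose for Mef2a 2.26, Pbx3 1.95, Ldb2 1.59, Cyp4v3 1.60 and Xist 2.31, and more negative for Fxyd7 -2.63, Prss12 -2.64, Rxrg -3.57, Tmem176a -2.20, Kcnj9 -2.48 and Midn -2.74. Among the probe sets of genes whose probe sets disagreed, the difference was more positive in nodose for Nrp1 0.67, Gria2 1.01 and Agfg1 0.85, and more negative for Nrp1 -1.22, Glul -1.72 and Agfg1 -1.14. Among the neuronal structural genes, the difference was more positive in nodose for Kif3c 0.53, Napb 0.53, Eno2 0.92 and Tubb3 0.47, and more negative for Nefm -1.73, Nefl -0.75, Mapk8ip1 -2.02, Syt11 -0.81, Celf4 -0.52, Chgb -0.53, Gap43 -0.55, Nefh -1.46 and Scg2 -1.15. Among the receptors and channels, the difference was more positive in nodose for Ntsr1 1.20 and Scn10a 0.56, and more negative for Npy2r -3.17, Grik1 -1.88, Ntrk3 -1.53, Crhr2 -1.62 and Trpc4 -1.86. Among the transcription factors, neuropeptides and monoamine genes, the difference was more positive in nodose for Klf7 0.94 and Tbx3 1.40, and more negative for Hmx1 -2.20, Adcyap1 -0.74, Tac1 -2.90, Gata3 -0.82 and Gal -1.03. Among the glial, vascular, immune, muscle and fat genes, the difference was more positive in nodose for Kdr 1.18, and more negative for Gja1 -2.37, Cdh5 -2.47, Eng -1.91, Emcn -1.37, C1qa -1.42, Myl1 -1.15, Lpl -2.43, Apoe -0.40, Cldn5 -1.72 and S100b -0.76. Among the stress and metabolic genes, the difference was more positive in nodose for Klf6 0.68, Pfkp 0.59, Atp5g2 0.74 and Psmb1 0.43, and more negative for Gadd45g -0.76, Fos -1.45, Jun -1.87, Mvd -0.67, Rpl7 -0.47, Rpl8 -0.73, Uqcr11 -1.98, Atp5md -0.93, Psmd11 -1.66 and Psma6 -0.85. Among the bright genes not called in nodose, it was more negative in nodose for Cadm1 -0.57.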

How the results depend on the processing

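Leaving out any 1 nodose array gave 1946 to 2190 probe sets higher in captured neurons and 2215 to 2315 higher in whole ganglion, beside 2140 and 2344. The samples carry numbers, but captured and whole nodose arrays share none. Captured nodose and captured DRG arrays share 4 numbers, with correlations of their deviations of -0.10, 0.12, -0.068 and 0.027 for 003, 008, 010 and 014. For 008 and 014, but not for 003 and 010, these exceeded the correlations with arrays of the other shared numbers. Whether the numbers pair samples is thus not settled. A whole nodose and a whole DRG array also share a number, which was not examined in this way. With the number as a replicate block the calls were 2141 and 2343, of which 2139 and 2342 were shared with the fit without it, and the interaction calls were 624 and 846 beside 642 and 861. The 2-fold calls of probe sets, 308 and 1025, were 544 in captured neurons with the same median on every array and 192 and 629 with 50 added to the signal. Without scaling 1387 probe sets were higher in captured neurons. The cause of these and the following moves was not tested.

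The counts of the gene lists moved by over 1.5 times as follows. After quantile normalization, genes higher in captured neurons numbered 3 on the other pan-neuronal list, 2 for monoamine synthesis, 1 for matrix, 1 for skeletal muscle and 3 for cell cycle. With the same median on every array they numbered 3 for monoamine synthesis, 1 for matrix, 1 for skeletal muscle, 3 for cell cycle and 6 for ribosomal proteins, and genes higher in whole ganglion numbered 1 for adipocytes, 0 for cholesterol synthesis and 9 for the proteasome. Without scaling the captured counts were 4 for vagal receptors, 1 for neurotrophic receptors, 1 for satellite glia, 1 for cholesterol synthesis, 0 for ribosomal proteins and 12 for the respiratory chain, and the whole counts were 1 for adipocytes, 0 for cholesterol synthesis and 8 for the proteasome. With the filter at the 60th percentile, which tested 5264 probe sets, the captured counts were 1 for neurotrophic receptors, 0 for monoamine synthesis, 1 for satellite glia and 0 for cell cycle, and the whole counts were 1 for transcription factors, 2 for neurotrophic receptors, 1 for monoamine synthesis, 0 for smooth muscle, 5 for macrophages, 0 for mast cells, 1 for adipocytes and 2 for cell cycle. With no filter the whole count of skeletal muscle was 2. With the 12 nodose arrays alone the captured counts were 1 for neurotrophic receptors, 2 for monoamine synthesis and 0 for ribosomal proteins. The last was 1 without trend and robust settings and 0 with array weights, which also gave 0 for monoamine synthesis and 1 for satellite glia. The mean of all probe sets of a gene gave 3 for vesicles, 2 for monoamine synthesis and 1 for satellite glia. It turned Glul (-0.91), Nrp1 (-0.61) and Agfg1 (-0.68) from called higher to called lower in captured neurons. Mag, not called on its brighter probe set, was called lower (-0.96). Stmn2 was no longer called (-0.031, limma adjusted p = 0.737). The mean of Col1a2 (-1.04) had the sign of its brighter probe set (-2.64) and not that of the other (0.55). Without captured arrays 010 and 014, an alternative chosen after seeing the data, the captured counts were 1 for matrix, 1 for skeletal muscle and 2 for cell cycle, and the whole counts were 1 for transcription factors and 2 for cholesterol synthesis. Leaving out 1 array at a time gave captured counts of 0 to 4 for ribosomal proteins, 0 to 1 for matrix and for monoamine synthesis, and 1 to 2 for cell cycle and for neurotrophic receptors. It gave whole counts of 1 to 2 for adipocytes and for cholesterol synthesis and 1 to 3 for transcription factors. All other list counts stayed within 1.5 times of those reported under the alternatives tried. Brightness over background was not analysed, so genes with signals near the added 11.4 are the least certain.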

Other observations

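Beside the nodose counts, the same gene lists gave these counts in DRG. Members passed the filter on nodose arrays alone, whatever their DRG signal, and all DRG and interaction counts depend on that. Of all genes, 27.1% were higher in captured neurons and 30.9% in whole ganglion in nodose, and 23.2% and 25.9% in DRG. Matrix genes were higher in whole ganglion for 18 of 21 in nodose and 16 of 21 in DRG, and the interaction was called for 0 of them. Myelin genes were higher in whole ganglion for 4 of 5 in both ganglia, and again the interaction was called for 0. Satellite glial genes were higher in whole ganglion for 7 of 11 in nodose and 4 of 11 in DRG, with 4 interactions called, all more negative in nodose: Sox2 (-2.48), Gja1 (-2.37), S100b (-0.76) and Apoe (-0.40). Endothelial genes were higher in whole ganglion for 7 of 12 in nodose and 3 of 12 in DRG, the latter close to the share of all genes. Macrophage and lymphocyte genes were higher in whole ganglion for 8 of 15 in both. Of all genes, 11.5% had an interaction called as more negative in nodose.

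Subunits of the respiratory chain and ATP synthase were higher in captured neurons for 20 of 58 in nodose and 23 of 58 in DRG, and higher in whole ganglion for 17 and 7. The interaction was called for 20 of the 58, 3 more positive and 17 more negative in nodose, beside 8.71% and 11.5% of all genes. Uqcr11, a small subunit of complex III, was -1.64 in nodose and 0.34 in DRG. Ribosomal protein genes were higher in captured neurons for 2 of 23 in nodose and 8 of 23 in DRG, beside 27.1% and 23.2% of all genes, with 0 interactions more positive and 8 more negative in nodose.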
